A study of Mus musculus with 2 samples.

Results

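The genes described here build N-linked glycans and glycosylphosphatidylinositol (GPI) anchors in the endoplasmic reticulum and Golgi. They were chosen by name, as the genes with symbols of the Alg, Dpm, Mgat and Pig families together with Stt3a, Stt3b, Rpn1, Rpn2, Dad1, Ddost, Dpagt1, Mogs, Ganab and Uggt1, and each was represented by its brightest probe set. The rule found 54 of the 22049 gene symbols on the array. The mean brightness of both arrays chose the probe sets, so brightness is a description here and not a result. Bone-marrow-derived macrophages (BMDM) of the C57BL/6J strain were grown for 7 days with L929 fibroblast supernatant, and both the wild-type (WT) cells and the cells lacking Oasl1 (Oasl1-/-) then received poly(I:C), a double-stranded RNA made in the laboratory, at 5 µg/ml for 9 h. For each genotype the RNA of 3 samples was pooled before labelling and hybridised to 1 Mouse Gene ST array from Affymetrix, which gives 2 arrays in all. No untreated array was analysed here. With 1 array per genotype there is no replicate check, no error and no test, and every value below is a description of these arrays.

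N-linked glycans start on dolichol, a membrane lipid, where sugars are added on the cytosolic and then on the luminal face of the endoplasmic reticulum. The oligosaccharyltransferase moves the finished glycan to asparagines of new proteins, glucosidases trim it while the protein folds, and Golgi enzymes give it branches. GPI anchors are glycolipids made on phosphatidylinositol in the same membrane, and the GPI transamidase attaches them to the end of proteins such as CD14, the lipopolysaccharide co-receptor of macrophages. The glycosylation of surface receptors, antigen-presenting molecules and secreted cytokines passes through these pathways.

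Values are log2 probe set signals as deposited, and differences are the log2 value in Oasl1-/- minus that in WT. An array's floor was set so that 95% of its negative control probe sets lay below it, at 7.75 for WT and 7.68 for Oasl1-/-, and a gene was called above the floor where it exceeded this on at least 1 array. Of the 54 genes, 33 were above the floor, 31 of them on both arrays, against 28.9% of all symbols, and 21 were below it on both. All 8 macrophage markers were above the floor on both arrays, with values from 9.51 to 12.85 in WT and from 9.54 to 12.88 in Oasl1-/-. None of the 4 T cell, 4 B cell, 3 NK cell, 3 dendritic cell, 4 fibroblast and 3 erythroid markers was above it, and of 5 neutrophil markers only Ngp was, on the Oasl1-/- array (6.90 and 7.79). Oasl1 itself was 12.59 in WT against 11.13 in Oasl1-/-, and whether its probes lie inside or outside the deletion was not known. Genes above the floor had a median difference of -0.04, and among them the dimmer genes had lower differences than the bright ones. The median was -0.08 for the 2204 genes with a mean value of 8 to 9, -0.02 for the 975 genes at 10 to 11 and 0.00 for the 495 genes at 11 to 12. In bulk RNA a smaller share of a cell type and less RNA per cell cannot be told apart.

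Most of the glycosylation and anchor genes had nearly the same value on both arrays. None of the 33 above the floor differed by 1.5-fold, where 0.361% of all genes above the floor were higher and 0.517% lower, or by 2-fold, where 0.141% were higher and 0.0784% lower. At a threshold of 1.2-fold, 2 were higher in Oasl1-/-, Ganab and Mgat4a, and 2 were lower, Alg5 and Mgat4b, while the other 29 lay closer to 0. Over all 6377 genes above the floor, 2.65% were at least 1.2-fold higher and 8.89% at least 1.2-fold lower, against 6.06% of the 33 in each direction. At 1.1-fold, 7 of the 33 were higher, or 21.2% against 9.8% of all genes above the floor, and 9 were lower, or 27.3% against 26.8%. The median difference of the 33 was -0.02, and 13 of them lay above 0, or 39.4%, close to the 36.5% of all genes above the floor. The 33 are not all members. Over all 54 genes the median was -0.03 and 21 differences lay above 0, or 38.9%, against 53.3% and a median of 0.02 over all symbols. Of the 54, 61.1% were above the floor, against 28.9% of all symbols, so the 2 sets differ in brightness. With the trend on brightness removed, the median of the 33 was 0.01 and that of all 54 was 0.0039.

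**Figure D1:**
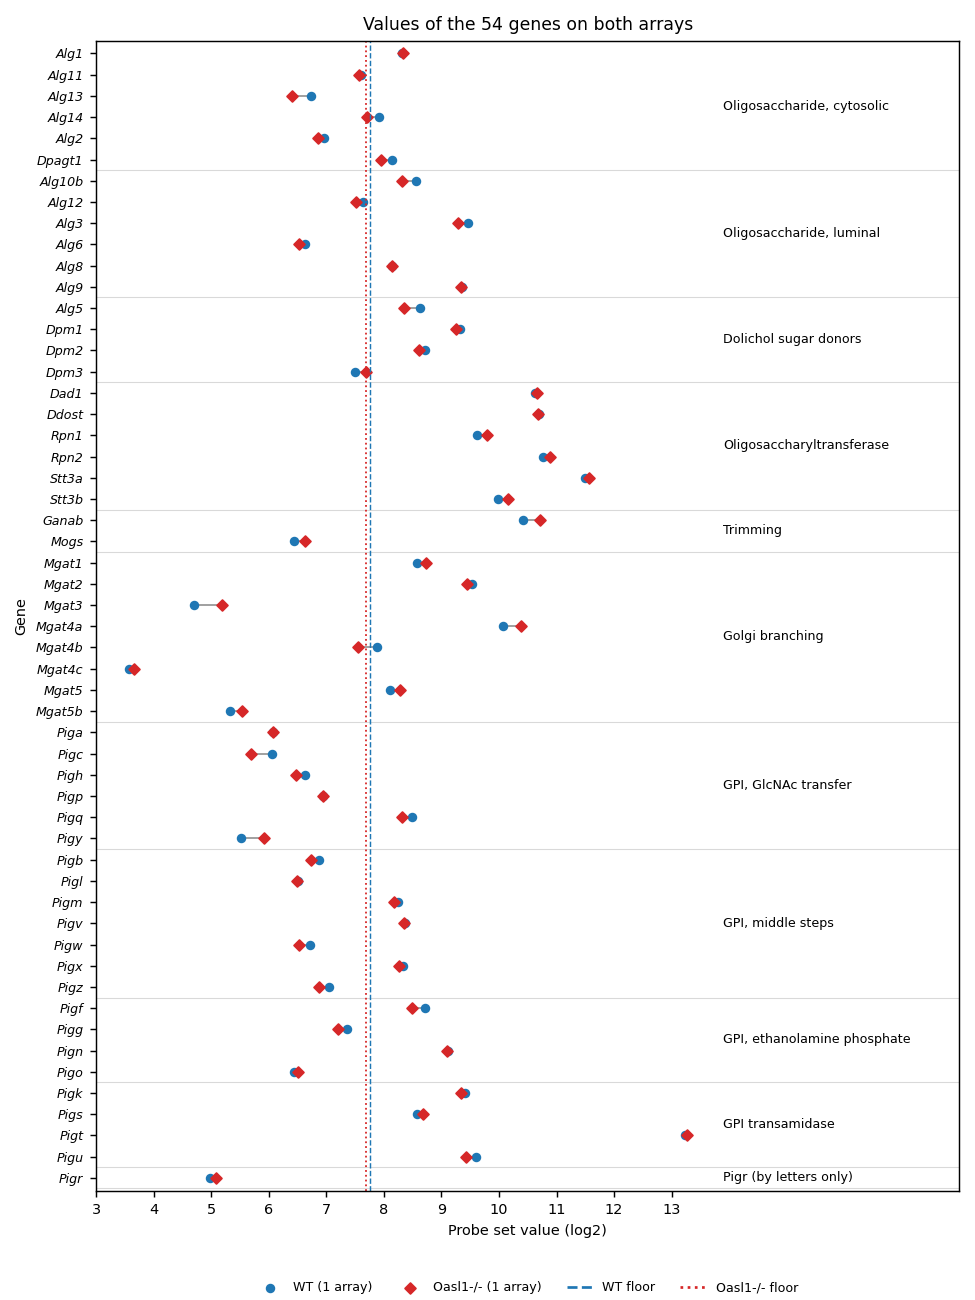
Value of each of the 54 genes (log2, x axis) on the WT array (blue circles) and the Oasl1-/- array (red diamonds), in rows by role, with each array's floor as a vertical line. The symbols of a row nearly coincide for most genes. Positions of different genes cannot be compared as abundances, since each probe set has its own response.

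Some of the 54 names need care. The pattern took in Pigr, the polymeric immunoglobulin receptor, which matches by its letters alone and makes no anchor, and which was below the floor (4.99 and 5.08). The brightest probe set named Pigt lies on chromosome 17, while the gene lies on chromosome 2, and only 6 of its 21 probes are assigned to the named transcript. Its value of 13.23 in WT against 13.26 in Oasl1-/- therefore cannot be read as Pigt mRNA, and the probe set on chromosome 2, with all 64 probes assigned, had 9.57 and 9.53. The accession behind the probe set named Pigy belongs to Pyurf in the RefSeq annotation. The probe set of Pigyl, which carries Pigy as an older name there, was below the floor with 6.81 and 6.92. The accessions of the other 52 genes belonged to the same symbol in RefSeq. For Pigp, the probe sets on chromosomes 16 (6.95 and 6.95) and 6 (7.07 and 6.81) were almost equally bright, and the former, on the gene's own chromosome, was taken. Uggt1 is named Ugcgl1 in the deposited table, so that the rule did not find it, and it is described among the other pathway genes below.

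The promoters of these genes were searched for sequence elements of the responses that double-stranded RNA and unfolded proteins are known to trigger. The windows were the 250 bases before each RefSeq start (GRCm38.p6), both strands were read, and 45 of the 54 genes had an entry. The interferon-response-like motif, GAAA and again GAAA with 2 bases of any kind between them, was found for 5 genes, Alg1, Ddost, Dpm1, Pigv and Stt3a, or 11.1% of the 45, against 3.46% of 27025 genes and 2.98% of 32851 windows. The differences of these 5 genes lay between -0.06 and 0.07. The full endoplasmic reticulum stress element, CCAAT and CCACG with 9 bases of any kind between them, was found for Alg12 only. That is 2.22% of the 45, against 0.13% of all genes and 0.113% of windows. The related element TGACGTGG, which overlaps the CCACG part on the other strand, was found for Pigp only. Its shares were 2.22% of the 45, 0.603% of all genes and 0.563% of windows. The parts of the full element are common, with CCAAT for 21 of the 45 genes, or 46.7% against 37.5% of all genes, and CCACG for 17, or 37.8% against 31.0%. These are matches of letters and not shown to be sites.
The promoters of the oligosaccharyltransferase subunits with the interferon-response-like motif, of the gene with the full stress element, and of Ganab, the trimming gene with the highest difference, are shown 5′ to 3′ in the direction of the gene. Capitals mark the interferon-response-like motif, on either strand, in Stt3a (chr9:36767623-36767872, minus strand) and Ddost (chr4:138304488-138304737, plus strand), the full stress element in Alg12 (chr15:88819319-88819568, minus strand) and CCAAT in Ganab (chr19:8897807-8898056, plus strand).
Stt3a: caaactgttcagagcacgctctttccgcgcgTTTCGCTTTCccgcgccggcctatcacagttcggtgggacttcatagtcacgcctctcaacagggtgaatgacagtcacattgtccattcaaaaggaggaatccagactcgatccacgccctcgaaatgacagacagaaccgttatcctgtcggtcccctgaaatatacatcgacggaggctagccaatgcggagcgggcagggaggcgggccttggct
Ddost: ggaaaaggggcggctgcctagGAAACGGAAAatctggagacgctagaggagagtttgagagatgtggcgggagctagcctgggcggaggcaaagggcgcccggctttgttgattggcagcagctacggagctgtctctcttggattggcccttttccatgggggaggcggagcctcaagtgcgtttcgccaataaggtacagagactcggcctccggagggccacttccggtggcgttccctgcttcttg
Alg12: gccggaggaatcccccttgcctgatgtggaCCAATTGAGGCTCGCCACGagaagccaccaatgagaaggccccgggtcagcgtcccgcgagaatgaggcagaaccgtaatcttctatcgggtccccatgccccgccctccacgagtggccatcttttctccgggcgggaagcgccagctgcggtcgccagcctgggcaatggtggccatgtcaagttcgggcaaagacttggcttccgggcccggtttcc
Ganab: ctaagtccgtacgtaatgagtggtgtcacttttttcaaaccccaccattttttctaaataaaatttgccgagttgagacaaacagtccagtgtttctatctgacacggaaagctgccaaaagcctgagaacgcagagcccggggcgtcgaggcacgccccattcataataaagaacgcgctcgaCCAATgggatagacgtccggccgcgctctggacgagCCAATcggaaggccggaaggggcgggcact

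Among the genes that build the glycan on the cytosolic face, Dpagt1 and Alg14 had lower values in Oasl1-/- and Alg1 nearly equal ones. Dpagt1, the enzyme that starts the chain, was 8.13 in WT against 7.95 in Oasl1-/-, a difference of -0.18. Alg14, the membrane anchor of the enzyme that adds the next N-acetylglucosamine, was 7.92 and 7.71, a difference of -0.21, at its brighter probe set. Its dim probe set, at 4.80 and 5.00, was below the floor. Alg13, the catalytic partner of Alg14, was below the floor on both arrays with 6.73 and 6.40, and 21 of its 45 probes are assigned to it. Alg1, which adds the first mannose, was 8.32 and 8.34. Alg2 (6.96 and 6.86) and Alg11 (7.60 and 7.58), which add further mannoses on the cytosolic face, were below the floor. Of these 6 genes, 3 were above the floor and 1 of the 3 lay above 0, near the 36.5% of all genes above the floor. Their median was -0.18, or -0.11 with the trend on brightness removed.

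On the luminal face, 4 of 6 genes were above the floor and none of the 4 lay above 0. Of all genes above the floor 36.5% did, with 30.2% at values of 8 to 9 and 35.8% at 9 to 10. Alg10b, a glucosyltransferase that ends the chain, was 8.56 in WT against 8.31 in Oasl1-/-, a difference of -0.25. Alg3, the mannosyltransferase that acts first in the lumen, was 9.46 and 9.29, a difference of -0.17. Alg9, which also adds mannose, was 9.35 and 9.33, and Alg8, a glucosyltransferase, was 8.14 on both arrays. The mannosyltransferase Alg12 (7.64 and 7.52), whose promoter holds the full stress element, and the glucosyltransferase Alg6 (6.63 and 6.53) were below the floor. The median of the 4 was -0.09, or -0.04 with the trend removed. With it removed, Alg8 and Alg9 lay above 0 (0.07 and 0.03) and Alg10b and Alg3 below it (-0.18 and -0.12).

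The sugar donors of these luminal steps are dolichol phosphates. Alg5, which makes dolichol phosphate glucose, was 8.63 in WT against 8.35 in Oasl1-/-, which gives -0.28 or 1.22-fold lower. Among the 2204 genes of like brightness the middle 90% of differences ran from -0.37 to 0.20, so Alg5 lay inside that range, and with the trend on brightness removed its difference was -0.21, short of 1.2-fold. Dpm1, the catalytic subunit of dolichol phosphate mannose synthase, was 9.32 and 9.26. Its partner subunits were Dpm2, at 8.72 and 8.61, and Dpm3, at 7.49 and 7.69, the latter above the floor on the Oasl1-/- array alone and by less than the gap between the floors. The median of these 4 donor genes was -0.09, or -0.03 with the trend removed. Over the 16 genes of chain building and donors, 11 were above the floor and 9 of the 11 lay below 0. The 2 above 0 are 18.2%, against 36.5% of all genes above the floor and 30.2% of those at 8 to 9. The median of the 11 was -0.11, or -0.04 with the trend removed.

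The oligosaccharyltransferase, which transfers the glycan to proteins, lay on the other side of 0. All 6 of its subunits among the chosen genes were above the floor on both arrays, and 5 of the 6 were higher in Oasl1-/-, with a median difference of 0.10. Rpn1, ribophorin I, was 9.62 in WT against 9.80 in Oasl1-/-, a difference of 0.18. Rpn2, ribophorin II, was 10.76 and 10.89, a difference of 0.13. The catalytic subunits were Stt3b, at 9.99 and 10.15, a difference of 0.16, and Stt3a, whose promoter holds the interferon-response-like motif, at 11.49 and 11.56, a difference of 0.07. A second, dimmer Stt3b probe set, below the floor at 7.23 and 7.40, had a difference of 0.17. Dad1 was 10.63 and 10.66, and Ddost, the other subunit with that motif, was 10.69 and 10.68. No subunit reached 1.2-fold, and each difference lay inside the middle 90% of genes of like brightness, which ran from -0.29 to 0.19 for values of 9 to 10, from -0.22 to 0.19 for 10 to 11 and from -0.17 to 0.19 for 11 to 12. In these ranges 35.8%, 43.9% and 49.3% of genes lay above 0. With the trend removed the median of the 6 was 0.11.

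**Figure D2:**
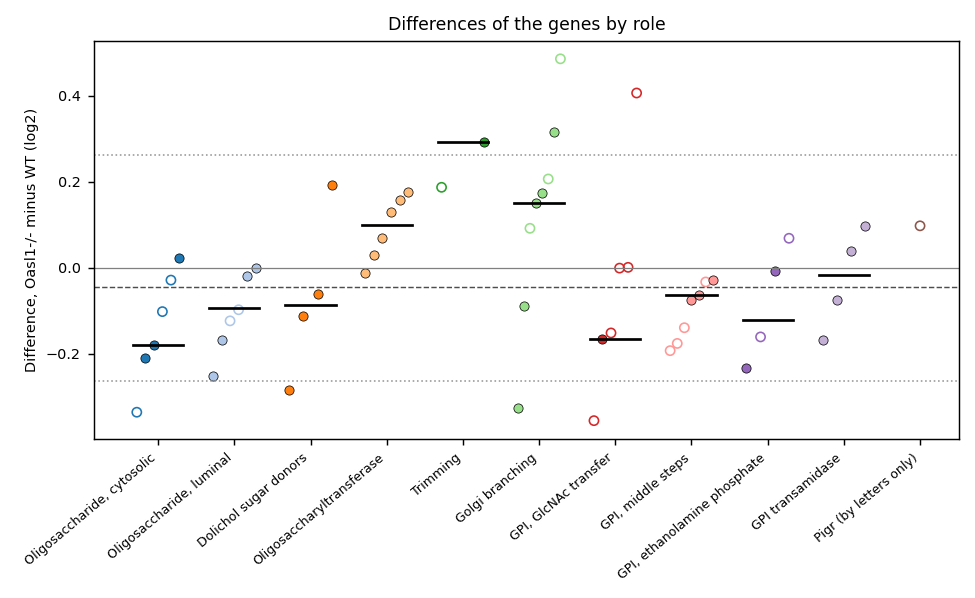
Difference of each gene, Oasl1-/- minus WT (log2, y axis), by role (x axis). Filled points are above the floor on at least 1 array, open points below it on both, and black bars are medians of the filled points. The dashed line is the median of all genes above the floor, and dotted lines mark 1.2-fold. The oligosaccharyltransferase median is 0.10, while those of the glycan-building groups are -0.18, -0.09 and -0.09, which become -0.11, -0.04 and -0.03 with the trend on brightness removed.

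After transfer, glucosidases trim the glycan. Ganab, the catalytic subunit of glucosidase II (NM_008060, chromosome 19, positions 8972586 to 8991223 in the NCBIM37 build), was 10.41 in WT against 10.71 in Oasl1-/-, a difference of 0.29 or 1.23-fold higher. The middle 90% of the 975 genes of like brightness ended at 0.19, below Ganab, and by construction 5% of the genes of a range lie above its middle 90%. Mogs, glucosidase I, which acts first, was below the floor with 6.44 and 6.62. Uggt1, the folding sensor that puts a glucose back on misfolded glycoproteins, was 9.17 and 9.51 under its older name, a difference of 0.34 or 1.27-fold higher. The 1604 genes with means of 9 to 10 had the middle 90% of their differences between -0.29 and 0.19. Prkcsh, the non-catalytic subunit of glucosidase II, was 9.76 and 9.77.

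The Golgi N-acetylglucosaminyltransferases that branch the glycan differed in both directions. Mgat4a (NM_173870, chromosome 1, positions 37501401 to 37592977), which starts a branch on complex glycans, was 10.06 in WT against 10.38 in Oasl1-/-, a difference of 0.32 or 1.25-fold higher, and lay above the 0.19 that ended the middle 90% of its brightness range. Its paralog Mgat4b (NM_145926, chromosome 11, positions 50039135 to 50048605) was 7.88 in WT but only 7.55 in Oasl1-/-, where it was below the floor. Its measured difference was -0.33, and against the floor it was at least 1.14-fold lower, so its place among the genes past 1.2-fold rests on a value within the background. Mgat1, which opens the way to complex glycans, was 8.58 and 8.74, a difference of 0.15. Mgat5, which adds the branch bound by galectins, was 8.12 and 8.29, a difference of 0.17. Mgat2, which acts after Mgat1, was 9.54 and 9.45, a difference of -0.09. Mgat3 (4.70 and 5.19), Mgat5b (5.33 and 5.54) and Mgat4c (3.57 and 3.66) were below the floor on both arrays. Over the 5 genes above the floor, 3 lay above 0, or 60.0%, against 36.5% of all genes above the floor. The median of the 5 was 0.15, or 0.22 with the trend on brightness removed.

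**Figure D3:**
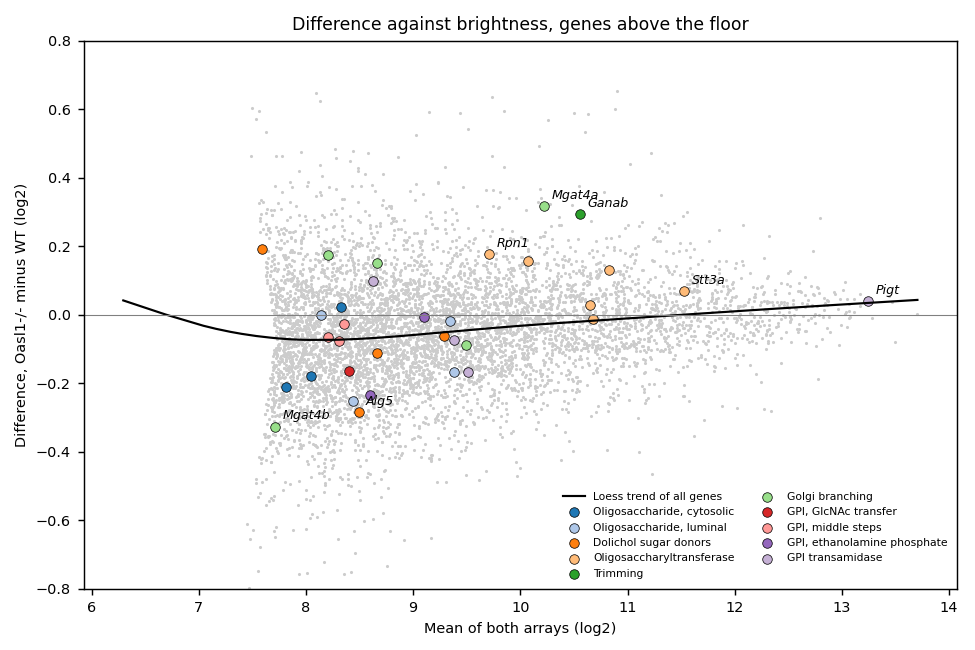
Difference, Oasl1-/- minus WT (log2, y axis), against the mean of both arrays (log2, x axis) for all 6377 genes above the floor (grey), with the 33 glycosylation and anchor genes in colour by role and the loess trend of all symbols as a line. The axis ends at 0.8 in both directions and leaves out 18 genes. Mgat4a and Ganab stand at the upper edge of genes of like brightness, while Alg5 and Mgat4b lie among many grey points.

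GPI anchor genes differed little between the genotypes. Of the 21 Pig genes other than Pigr, 10 were above the floor, 2 of the 10 lay above 0, and the median was -0.07, or 0.00 with the trend on brightness removed. Of all genes above the floor 36.5% lay above 0, with 30.2% at values of 8 to 9 and 35.8% at 9 to 10. With the chromosome 2 probe set for Pigt, a choice made after seeing the data, 1 of the 10 lay above 0 and the median was again -0.07. None of the 10 differed by 1.2-fold, where 2.65% of all genes above the floor were higher and 8.89% lower. Of the complex that moves N-acetylglucosamine to phosphatidylinositol, Pigq was the only member above the floor, with 8.49 in WT against 8.32 in Oasl1-/-, a difference of -0.16. Its catalytic subunit Piga was 6.08 on both arrays, Pigh was 6.62 and 6.47, and Pigc was 6.05 and 5.70, all below the floor. The probe set that the table names Pigy, with the accession of Pyurf, was also below it at 5.51 and 5.92.

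Of the 7 genes of the next steps, 3 were above the floor, and their median was -0.06, or 0.01 with the trend on brightness removed. None of the 3 lay above 0, against 30.2% of all genes above the floor at values of 8 to 9. Pigm, which adds the first mannose, was 8.24 in WT against 8.18 in Oasl1-/-, and its stabilising partner Pigx was 8.34 and 8.27. Pigv, which adds the second mannose, was 8.37 and 8.34. The deacetylase Pigl (6.52 and 6.48), the inositol acyltransferase Pigw (6.72 and 6.52) and the mannosyltransferases Pigb (6.88 and 6.74) and Pigz (7.05 and 6.87) were below the floor. Every gene of these 7 had a difference between -0.19 and -0.03. With the trend removed, Pigm and Pigv lay above 0 (0.01 and 0.04) and Pigx lay at -0.0025.

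Ethanolamine phosphate is added next. Pigf, a partner of the enzymes Pigo and Pigg, was 8.71 in WT against 8.48 in Oasl1-/-, which is 1.18-fold lower by a difference of -0.23, the lowest of the anchor genes above the floor. Pign, which modifies the first mannose, was 9.11 and 9.10. Pigo (6.44 and 6.51) and Pigg (7.36 and 7.20) were below the floor. Pigg was the only one of the 54 genes on chromosome 5, the chromosome of Oasl1, 6.60 Mb from it.

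The GPI transamidase, which joins the anchor to the protein, differed in both directions. Pigk, its catalytic subunit, was 9.42 in WT against 9.34 in Oasl1-/-, a difference of -0.07. Pigu was 9.60 and 9.43, a difference of -0.17, and Pigs was 8.58 and 8.67, a difference of 0.10. With the chromosome 2 probe set for Pigt, at -0.04, the median of the 4 subunits was -0.06, against -0.02 with the brightest probe set. Gpaa1, the remaining subunit and not among the chosen names, was 8.30 and 8.45, a difference of 0.14.

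Other genes of the pathways, from lists chosen by function, had similarly small differences. Of 17 genes for dolichol and nucleotide sugars, 12 were above the floor, 1 was at least 1.2-fold lower and none higher. The 1 is 8.33%, against 8.89% of all genes above the floor, of which 2.65% were higher by this much. The median of the 12 was -0.04, or 0.03 with the trend on brightness removed. Dolpp1, which recycles dolichol after glycan transfer, was 8.08 in WT against 7.78 in Oasl1-/-, a difference of -0.30. With the trend removed the difference of Dolpp1 was -0.23, short of 1.2-fold. Gfpt1, the enzyme that commits glucose to amino sugars, had the highest difference of the 12 above the floor, 0.25 (8.74 and 8.99). Of 6 further oligosaccharyltransferase subunits, 5 were above the floor. Of the 5, 4 lay above 0, or 80.0%, against 36.5% of all genes above the floor. Their median was 0.02, or 0.10 with the trend removed, with Ostc at 0.20 (9.12 and 9.32). Of 16 genes for trimming, lectin chaperones and glycan removal, 14 were above the floor and 11 of these lay above 0, or 78.6%. Of all genes above the floor 36.5% did, with 30.2% at values of 8 to 9 and 49.3% at 11 to 12. The median of the 14 was 0.03, or 0.07 with the trend removed, and none was past 1.2-fold. Of the 14, Ngly1, which strips glycans from proteins sent for degradation, had the largest difference, -0.26 (7.97 and 7.72).

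Of 8 further genes of GPI assembly and remodelling, 7 were found, under these or other names, and 4 of the 7 were above the floor. Of the 4, 3 lay above 0, against 36.5% of all genes above the floor. Their median was 0.15, or 0.22 with the trend removed. Pgap1, which removes the acyl chain from inositol once the anchor is attached, was 9.15 in WT against 9.49 in Oasl1-/-, a difference of 0.35 or 1.27-fold higher. The list of other Golgi enzymes held 7 genes, of which Man2b1 is a lysosomal mannosidase (11.35 and 11.47). Without it, 3 of 6 were above the floor and their median was -0.20, against -0.19 with it. Among them St3gal4, a sialyltransferase, was 8.09 and 7.76, a difference of -0.33 or 1.26-fold lower. Among 14 GPI-anchored surface proteins, 10 exceeded the floor, and the median difference of these 10 was -0.02. At 1.2-fold, 2.65% of all genes above the floor were higher and 8.89% lower. Of the 10, 2 were higher by at least this much, or 20.0%, and 1 was lower, or 10.0%. The former were the close paralogs Ly6c1 (10.20 and 10.79) and Ly6c2 (8.85 and 9.44), whose probe sets may take up each other's transcripts, and the latter was Plaur, the urokinase receptor (7.99 and 7.70). Cd14 was 10.80 and 10.77, and Bst2, the antiviral protein tetherin, was 12.02 and 11.96. For comparison, 12 of 13 endoplasmic reticulum chaperone genes were above the floor, and their median was 0.04, with none past 1.2-fold. Of the 12, 10 lay above 0, or 83.3%, against 36.5% of all genes above the floor. That share was 43.9% at values of 10 to 11, 49.3% at 11 to 12 and 51.7% at 12 to 13. The median of the 12 chaperone genes with the trend removed was 0.06, beside 0.11 for the oligosaccharyltransferase. The difference between these groups was not tested.

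**Figure D4:**
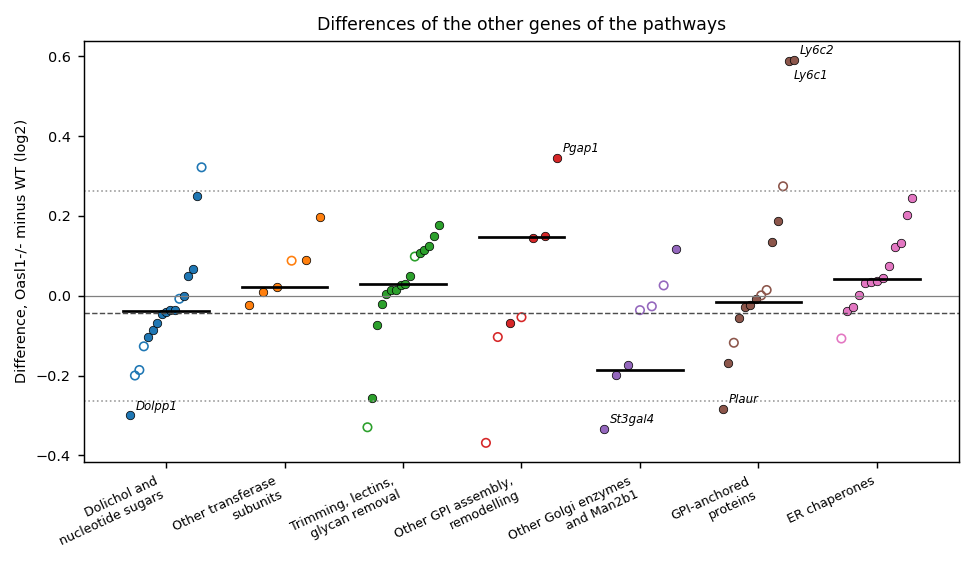
Difference, Oasl1-/- minus WT (log2, y axis), of the other pathway genes, GPI-anchored proteins and endoplasmic reticulum (ER) chaperones by list (x axis). Symbols and lines are as in the plot of differences by role, and genes above the floor past 1.2-fold are named. Ly6c1 and Ly6c2, both at 0.59, and Pgap1, at 0.35, lie highest.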

How the data were processed

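Macrophages of both genotypes, WT and Oasl1-/-, were measured after poly(I:C) on 1 array each, with pooled RNA of 3 samples per genotype, per the labels' protocols. The values are log2 signals per probe set as deposited by the authors. GCOS and RMA are named, without versions, per the submitters' processing notes. RMA corrects background, normalizes arrays and summarises probes, and it compresses the differences of dim probe sets. Joint normalization of the arrays is neither stated nor denied in the sources used. The authors' deposited log2 ratio equalled Oasl1-/- minus WT in every row, and the second deposited table held the same values. Mixing RNA hides the spread between cultures, and the number of arrays limits the precision.

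Of 35556 probe sets, 25305 carried 1 symbol, and the brightest probe set stood for each symbol. The floor used 5267 intron and antigenomic negative controls per array. Coordinates are those of the deposited table, whose transcript descriptions name NCBIM37. Accessions and chromosomes were compared with RefSeq (GRCm38.p6), and promoters were taken from it. Brightness ranges were 1 log2 unit wide. The loess trend (span 0.3) was fitted over all symbols. Genes were named by a rule: in each role list of the 54 genes those with the largest differences above the floor, all past 1.2-fold, and all members of lists of up to 6, and in each other pathway list up to 3 genes past 1.2-fold, or else the 1 with the largest difference. In addition Oasl1 and the genes named for probe set problems, motifs or as comparisons were named, the latter chosen after their values were seen. The members, lists and alternatives were chosen with earlier results of these data known. The counting code was tested on simulated data. The software was Python 3.11.15 with statsmodels 0.14.6 for the trend, pandas 2.3.3 and NumPy 2.4.6 for tables, and Matplotlib 3.10.9 for figures.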

Additional observations from a re-analysis of the deposited data

How the results depend on the processing

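Ganab and Mgat4a stayed at least 1.2-fold higher in Oasl1-/- under each of 14 settings other than the fold threshold. Their differences ran from 0.29 to 0.34 and from 0.31 to 0.36. Only centring, removal of the loess trend, quantile normalization and log2 of the linear value plus 32 changed these differences. The other settings could not change them, since each gene has 1 probe set, above every floor tried. The lower calls changed with more settings. Instead of 2 lower genes there was 1 with the floor on both arrays, with differences centred on the median gene, with log2 of the linear value plus 32, and with sub-floor values raised to the floor (chosen after seeing the data). There were 0 with the loess trend removed and with quantile normalization, and 4 with the array median as the floor. The higher genes were 3 in place of 2 with quantile normalization and with the array median as the floor. With no floor 4 genes were higher and 4 lower. At 1.1-fold 7 were higher and 9 lower, and at 1.5-fold and 2-fold 0 in either direction. With 1 array per genotype none of these counts has a test or p-value. The 99th percentile of the negative controls left 9 of the 33 genes above the floor, and their median was 0.13 in place of -0.02, from the loss of the dimmer genes by construction. The medians of the genes above the floor and of all 54 changed sign to 0.025 and 0.016 with centring, to 0.0097 and 0.0039 with the trend removed, and to 0.019 and 0.013 with quantile normalization. The oligosaccharyltransferase median ran from 0.10 to 0.14 and that of the cytosolic chain-building genes from -0.18 to -0.08 over the settings tried, that of the luminal genes from -0.12 to -0.04 and that of the sugar donors from -0.11 to -0.03. The median of the transamidase changed sign under 3 settings and that of the middle anchor steps under 2. The cause of these changes was not tested except where construction is named. No paired analysis was possible because each genotype had 1 array.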
